A study of Mus musculus with 2 samples.

Results

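The 49 genes described here encode the machinery that licenses replication origins, opens them and copies DNA at the fork, with the enzymes that supply its nucleotides. They were chosen by name, as the probe sets to which the array annotation gives exactly 1 of these gene symbols. All 49 were measured, by 51 of the 21789 probe sets with a single symbol, and they are set beside the 19938 genes that these probe sets name. A gene with more than 1 probe set is given as their mean. The 2 probe sets of Pcna had equal signals in both arrays and count as 1 measurement, and the 2 probe sets of Tk1 had log2 differences of -0.59 and -0.62.

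The arrays compared Mll1 cKO myoblasts (labelled MLL1 KO) with control myoblasts. Both came from 1 primary line of hind limb myoblasts, the dividing progeny of muscle satellite cells, which carried floxed Mll1 alleles and Rosa-CreER, a Cre recombinase made from the widely active Rosa26 locus that enters the nucleus only with 4-hydroxytamoxifen. The Mll1 cKO culture received 500 nM 4-hydroxytamoxifen in 0.01% ethanol for 7 days and the control culture received 0.01% ethanol alone, each followed by 3 days without the additions per the labels, whereas the methods of the study give a shorter washout. The medium of both held 20% serum and 5 ng/ml FGF. Each condition has 1 array and no culture without Cre was treated, so differences have no replicate check and no test, and loss of MLL1 cannot be told apart from other effects of the drug and of active Cre. Values are RMA signals on the log2 scale, that is, background-corrected and quantile-normalized array intensities summarised for each probe set. Differences were taken as Mll1 cKO minus control on this scale, and folds are their antilogs. The signal of Kmt2a, the MLL1 gene, was 9.66 in Mll1 cKO myoblasts and 9.44 in control myoblasts. This signal averages probes along the whole transcript, so it does not check the deletion of a part of it. The study assessed the deletion by RT-qPCR and at the protein level. Its supplement also shows array log2 fold changes at positions along the Mll1 transcript, with the floxed region marked.

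A cell copies its genome once per division. In G1 phase the origin recognition complex, with CDC6 and CDT1, loads the MCM2-7 ring onto DNA, and geminin blocks further loading after S phase has begun. Kinases then recruit CDC45 and the GINS complex to turn the ring into an active helicase, polymerase α-primase lays down primers, and polymerases δ and ε extend them with the help of the sliding clamp PCNA. Transcription of many of these genes is driven by E2F factors at the entry into S phase and is repressed by retinoblastoma family proteins in cells that have left the cycle.

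One feature that the choice by name did not use is the promoter. The RefSeq table of GRCm38.p6 holds windows of 300 bases, of which 250 lie before the start site and 50 from it onwards, for 40 of the 49 genes, and a gene can have several start sites. Each window was searched on both strands for 4 words of the E2F site, TTTCCCGC, TTTCGCGC, TTTGCCGC and TTTGGCGC. Of the 40 genes, 15 (37.5%) held at least 1 word in a window, against 543 (3.48%) of the 15614 array genes with a window. On opposite strands words can overlap in their last 4 bases, as they did in the windows of Mcm5 and Mcm6. The windows below are those of the 4 genes with an E2F word whose signals were lowest in the Mll1 cKO array relative to control, followed by that of Cdt1, which was chosen after its values were seen, as the gene with a word and the highest difference of these 15. Capitals mark the E2F word, which reads GCGCGAAA, GCGGGAAA or GCGCCAAA where it lies on the opposite strand.
Clspn, chr4:126556730-126557029, plus strand: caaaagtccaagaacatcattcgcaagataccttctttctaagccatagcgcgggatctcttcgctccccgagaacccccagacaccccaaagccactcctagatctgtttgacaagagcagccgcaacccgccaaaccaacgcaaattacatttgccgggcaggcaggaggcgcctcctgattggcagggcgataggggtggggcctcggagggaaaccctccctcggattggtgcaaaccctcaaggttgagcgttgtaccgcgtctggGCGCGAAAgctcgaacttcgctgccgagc
Lig1, chr7:13278576-13278875, plus strand: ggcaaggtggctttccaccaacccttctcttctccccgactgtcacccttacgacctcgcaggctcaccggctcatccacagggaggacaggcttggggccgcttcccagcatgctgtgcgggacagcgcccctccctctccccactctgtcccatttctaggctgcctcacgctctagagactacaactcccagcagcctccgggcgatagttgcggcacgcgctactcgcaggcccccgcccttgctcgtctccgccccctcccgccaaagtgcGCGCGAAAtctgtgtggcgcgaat
Cdc6, chr11:98907901-98908200, plus strand: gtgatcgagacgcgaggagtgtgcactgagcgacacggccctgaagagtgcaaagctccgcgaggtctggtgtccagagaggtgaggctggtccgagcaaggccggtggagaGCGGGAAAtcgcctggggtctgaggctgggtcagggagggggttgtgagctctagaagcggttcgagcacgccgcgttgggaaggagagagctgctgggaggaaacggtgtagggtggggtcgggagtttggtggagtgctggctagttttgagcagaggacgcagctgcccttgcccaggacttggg
Pola1, chrX:93632106-93632405, minus strand: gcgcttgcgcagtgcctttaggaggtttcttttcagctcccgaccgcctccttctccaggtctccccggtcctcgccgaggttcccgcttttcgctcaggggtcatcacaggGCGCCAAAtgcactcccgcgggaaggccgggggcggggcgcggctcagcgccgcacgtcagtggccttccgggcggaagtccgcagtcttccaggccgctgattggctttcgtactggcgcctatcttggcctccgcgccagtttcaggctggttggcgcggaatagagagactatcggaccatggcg
Cdt1, chr8:122567765-122568064, plus strand: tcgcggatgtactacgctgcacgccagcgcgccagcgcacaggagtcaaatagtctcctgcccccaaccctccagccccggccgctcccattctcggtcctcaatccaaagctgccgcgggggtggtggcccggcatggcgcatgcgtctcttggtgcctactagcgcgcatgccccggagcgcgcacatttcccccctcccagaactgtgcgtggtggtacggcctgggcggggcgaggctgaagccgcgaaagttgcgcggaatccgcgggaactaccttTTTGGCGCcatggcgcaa
Counted from the start site as 0, the word of Clspn begins 21 bases and that of Lig1 26 bases after it, and those of Cdc6 and Pola1 begin 138 bases before it. The word of Cdt1 begins 32 bases after the start site. Such matches are a description of the letters and not evidence of a bound factor.

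As a group the replication genes had lower signals in the Mll1 cKO array than in the control array, by a modest amount and in nearly every member. The signal was lower for 46 of 49 genes (93.9%), while 55.6% of all named genes were lower by any amount. The median log2 difference was -0.43, or 1.35-fold lower, against a median of -0.05 over all named genes. More than 1.5-fold lower were 15 genes (30.6%), a size that 2.01% of the named genes reached, and none was more than 1.5-fold higher, where the share of all named genes was 4.86%. No member passed the 2-fold cut-off of the study's methods, which 0.11% of the named genes passed in the downward direction. Member differences ran from -0.82 to 0.07 with an SD of 0.23 over the 49 genes. Among the 8633 named genes whose brighter array had a signal over 7, a level that 47 of the members exceed, 40.7% were lower, 1.99% were over 1.5-fold lower and the median was 0.06.

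**Figure D1:**
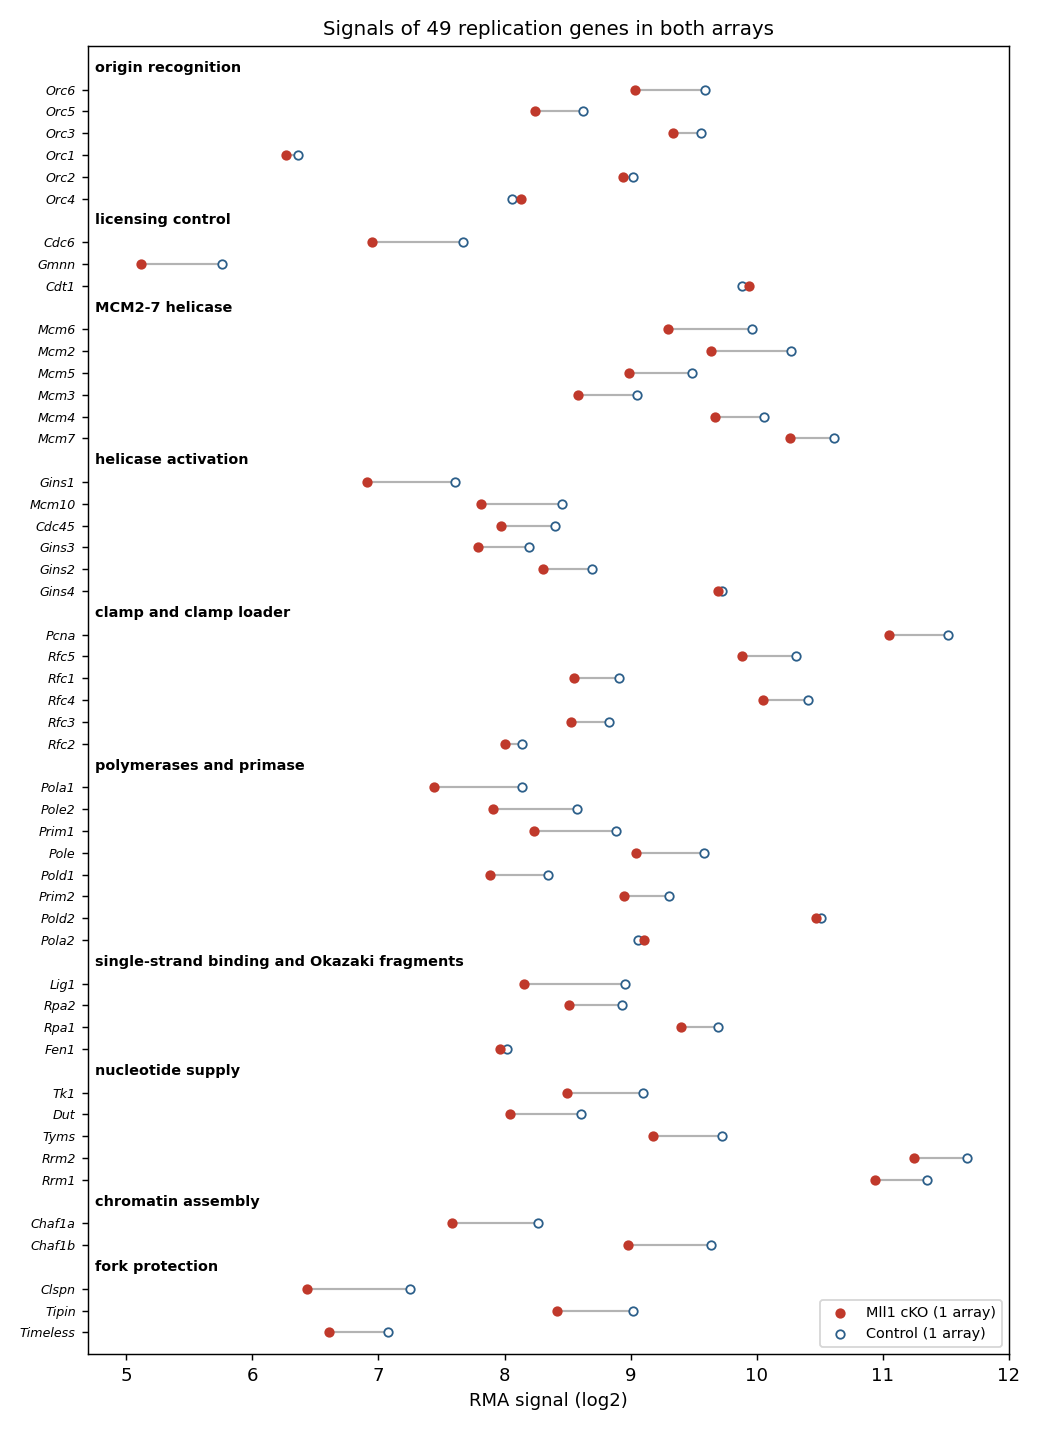
Log2 RMA signals of the 49 replication genes, by role, with 1 filled point for the Mll1 cKO array and 1 open point for the control array of each gene. The filled point lies to the left of the open one for 46 genes, and the exceptions are Orc4, Cdt1 and Pola2.

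Fork protection had the member with the lowest difference of all. Clspn encodes claspin, which travels with the fork and passes the checkpoint signal to the kinase CHK1. Its log2 signal was 6.44 in Mll1 cKO myoblasts and 7.25 in control myoblasts, 1.76-fold lower, and only 0.301% of the named genes of similar mean signal (10 groups of equal size were formed on mean signal) differed this far downwards. Its partners in the fork protection complex are Timeless and Tipin. Tipin was 1.52-fold lower, with log2 signals of 8.42 in Mll1 cKO myoblasts and 9.02 in control myoblasts, and passed 1.5-fold no more after centring. Timeless was 1.39-fold lower, with 6.61 in Mll1 cKO myoblasts and 7.08 in control myoblasts.

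Lig1, the DNA ligase that seals Okazaki fragments, came next. It had a log2 signal of 8.16 in Mll1 cKO myoblasts and 8.95 in control myoblasts, 1.74-fold lower, and 0.702% of the genes of similar signal were as low or lower. Fen1 encodes the flap endonuclease that trims the same fragments before ligation. Its log2 signals were 7.97 in Mll1 cKO myoblasts and 8.02 in control myoblasts, a log2 difference of -0.05. The enzymes act one after the other, and their differences were far apart. The single-strand binding protein RPA lay between them, with log2 differences of -0.42 for Rpa2 and -0.30 for Rpa1.

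In licensing control, both the loading factor Cdc6 and the loading inhibitor Gmnn were lower, whereas Cdt1 was not. Cdc6 had a log2 signal of 6.95 in Mll1 cKO myoblasts and 7.67 in control myoblasts and was 1.65-fold lower. Gmnn, which encodes geminin, had the weak log2 signals of 5.12 in Mll1 cKO myoblasts and 5.76 in control myoblasts and was 1.56-fold lower, and its log2 difference was -0.48 after removal of the trend of differences on signal, no longer over 1.5-fold. Cdt1, the protein that geminin binds and inhibits, had a log2 signal of 9.94 in Mll1 cKO myoblasts and 9.88 in control myoblasts. Its log2 difference of 0.05 was near the middle of the genes of similar signal, 55.4% of which had the same or a lower one.

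The origin recognition complex was the role with the smallest median, -0.15 over its 6 subunits, and none of them was over 1.5-fold lower. Orc6 was the lowest, with log2 signals of 9.03 in Mll1 cKO myoblasts and 9.59 in control myoblasts, 1.47-fold lower. Orc5 followed with a log2 difference of -0.38 and Orc3 with -0.22. Orc1, the subunit that human cells degrade and make anew in each cycle, had log2 signals of 6.27 in Mll1 cKO myoblasts and 6.36 in control myoblasts, a difference of -0.09, and Orc2 differed by -0.08. Orc4 had log2 signals of 8.13 in Mll1 cKO myoblasts and 8.06 in control myoblasts, the highest difference of all members at 0.07, with a sign that turned when the arrays were quantile normalized again.

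All 6 subunits of the MCM2-7 helicase were lower, within a narrow range of log2 differences from -0.66 to -0.35. Mcm6 had a log2 signal of 9.30 in Mll1 cKO myoblasts and 9.96 in control myoblasts and was 1.58-fold lower. Mcm2, at 9.63 in Mll1 cKO myoblasts and 10.27 in control myoblasts, was 1.56-fold lower. Mcm7 had the smallest difference of the ring, with log2 signals of 10.26 in Mll1 cKO myoblasts and 10.61 in control myoblasts, 1.27-fold lower. Mcm5, Mcm3 and Mcm4 lay between, with log2 differences of -0.50, -0.47 and -0.39. The other roles with 6 or more genes each held a gene closer to 0.

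The factors that activate this helicase differed more among themselves. Gins1 had a log2 signal of 6.91 in Mll1 cKO myoblasts and 7.61 in control myoblasts and was 1.63-fold lower. Mcm10, which binds the activated helicase and is needed to start unwinding, was 1.56-fold lower, with 7.82 in Mll1 cKO myoblasts and 8.45 in control myoblasts. Cdc45, Gins3 and Gins2 had log2 differences of -0.43, -0.41 and -0.38. The remaining GINS subunit, Gins4, had log2 signals of 9.69 in Mll1 cKO myoblasts and 9.72 in control myoblasts, and its small difference of -0.03 changed sign once the median of all genes was subtracted. Although the 4 GINS proteins act as 1 tetramer, their log2 differences therefore spanned -0.70 to -0.03.

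**Figure D2:**
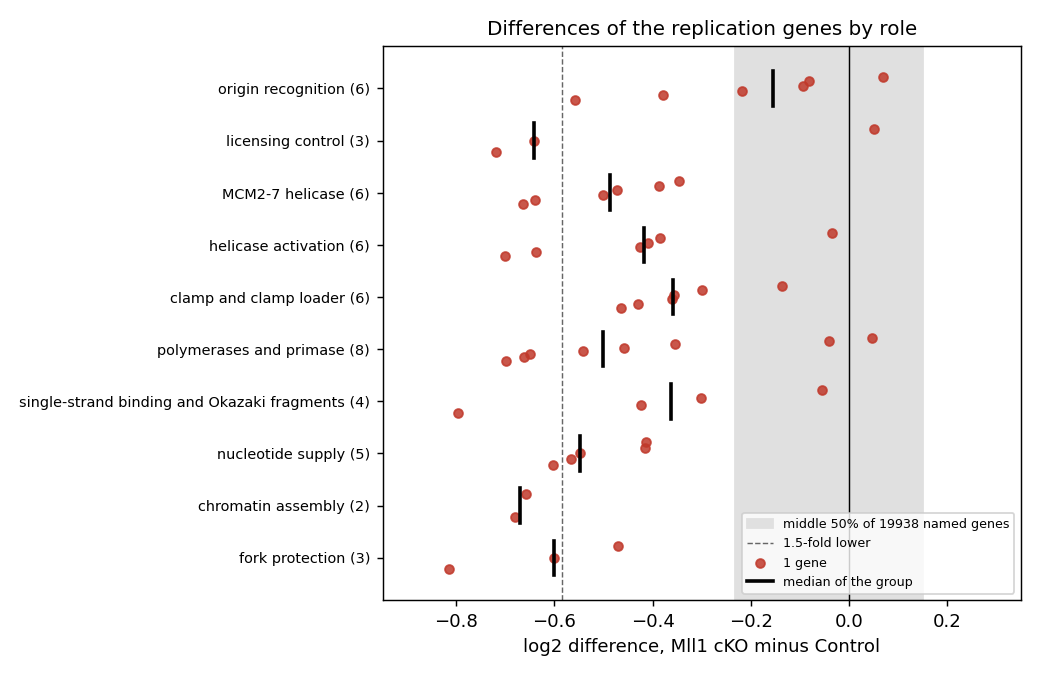
Log2 differences (Mll1 cKO minus control) of the 49 replication genes in 10 roles, with the number of genes in parentheses, 1 point per gene, a bar at each median, a dashed line at 1.5-fold lower and a grey band for the interquartile range of all named genes. Group medians run from -0.67 for chromatin assembly to -0.15 for origin recognition.

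Among the polymerases, catalytic and accessory subunits differed by unequal amounts. Pola1, the catalytic subunit of polymerase α, had a log2 signal of 7.44 in Mll1 cKO myoblasts and 8.14 in control myoblasts and was 1.62-fold lower. Pola2, its accessory subunit, had 9.10 in Mll1 cKO myoblasts and 9.06 in control myoblasts, a difference of 0.05 that turned negative on renewed quantile normalization. Prim1, the catalytic subunit of primase, was 1.57-fold lower, with 8.23 in Mll1 cKO myoblasts and 8.88 in control myoblasts, and Prim2, the large subunit, had a log2 difference of -0.36. In polymerase ε, the leading strand enzyme, Pole2 had 7.91 in Mll1 cKO myoblasts and 8.57 in control myoblasts and was 1.58-fold lower, and the catalytic subunit Pole was 1.46-fold lower. Pold1, the catalytic subunit of polymerase δ, was 1.37-fold lower. Its partner Pold2 had log2 signals of 10.47 in Mll1 cKO myoblasts and 10.51 in control myoblasts, a difference of -0.04 whose sign turned under centring.

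The smaller subunits of these enzymes, taken from a second list of replication genes, extended this spread. Pold4, the smallest subunit of polymerase δ, had a log2 signal of 8.31 in Mll1 cKO myoblasts and 7.68 in control myoblasts and was 1.54-fold higher, the single gene of that list over 1.5-fold higher, while Pold3 had a difference of -0.35. The polymerase ε subunits Pole3 and Pole4, which are histone-fold proteins, had differences of 0.01 and -0.25.

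**Figure D3:**
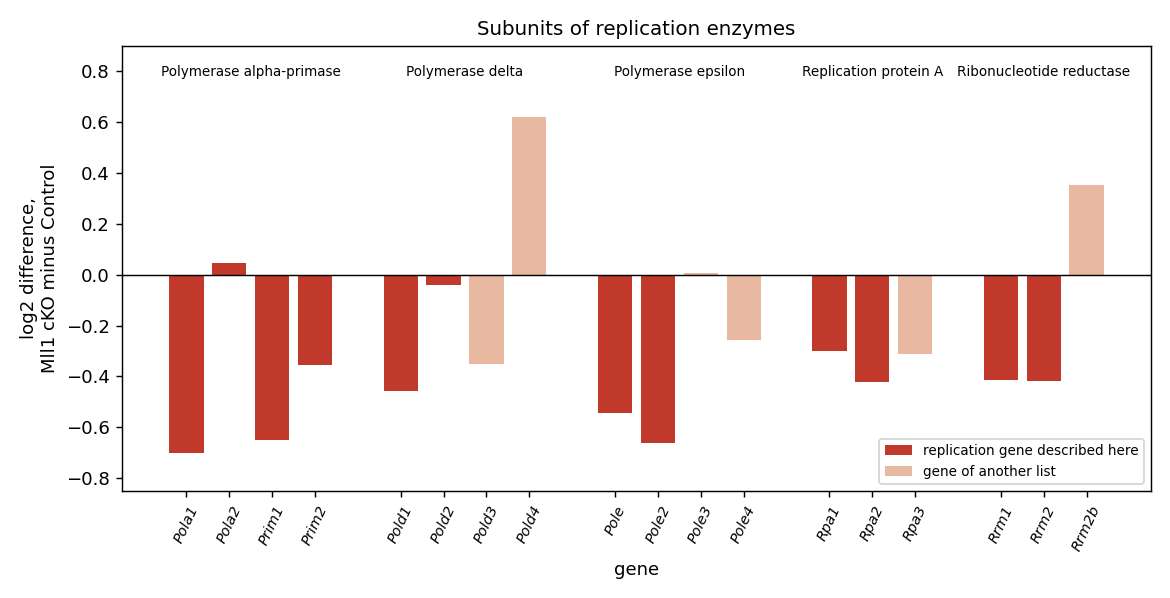
Log2 differences (Mll1 cKO minus control, 1 array each) of the subunits of 5 replication enzymes, as bars from 0. Dark bars are replication genes described here and pale bars are subunits from the other lists. Of the pale bars, Pold4 (0.62), Rrm2b (0.35) and, barely, Pole3 (0.01) are higher in the Mll1 cKO array.

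In the sliding clamp and its loader 6 of 6 genes were lower and none was over 1.5-fold lower. Pcna had a log2 signal of 11.05 in Mll1 cKO myoblasts and 11.52 in control myoblasts and was 1.38-fold lower, with 2.31% of the genes of similar signal as low or lower. Of the subunits of replication factor C, the loader that opens the clamp, Rfc5 had the lowest difference at -0.43, and Rfc1, Rfc4 and Rfc3 had -0.36, -0.36 and -0.30. Rfc2 had log2 signals of 8.01 in Mll1 cKO myoblasts and 8.14 in control myoblasts, a difference of -0.14.

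Nucleotide supply was lower for all 5 genes, with a median log2 difference of -0.55. Tk1, the thymidine kinase of S phase, had a log2 signal of 8.50 in Mll1 cKO myoblasts and 9.10 in control myoblasts, 1.52-fold lower, with a log2 difference of -0.55 and no longer over 1.5-fold once the median of all genes was subtracted. Dut, which removes dUTP and so keeps uracil out of DNA, was 1.48-fold lower and Tyms, which makes thymidylate, was 1.46-fold lower. The ribonucleotide reductase genes Rrm2 and Rrm1 had nearly equal log2 differences of -0.42 and -0.41, and Rrm1 had log2 signals of 10.93 in Mll1 cKO myoblasts and 11.35 in control myoblasts. Rrm2b, which encodes the alternative small subunit of this reductase that is made outside S phase and after DNA damage, had 6.80 in Mll1 cKO myoblasts and 6.45 in control myoblasts and was 1.28-fold higher.

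Chromatin assembly factor 1, which places new histones behind the fork, was lower in both genes by almost the same amount. Chaf1a had a log2 signal of 7.58 in Mll1 cKO myoblasts and 8.26 in control myoblasts and was 1.60-fold lower. Chaf1b, at 8.98 in Mll1 cKO myoblasts and 9.64 in control myoblasts, was 1.58-fold lower.

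In 8 genes the log2 difference lay within 0.1 of 0, namely Orc1, Orc2, Orc4, Cdt1, Gins4, Pola2, Pold2 and Fen1. Of these, 3 were origin recognition subunits, and the others lay in roles where most members were lower by more than that. Orc1 and Cdt1 held an E2F word in their windows. Of the 15 genes over 1.5-fold lower, at least 1 came from each role except origin recognition and the clamp with its loader.

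Among array genes outside the group, those with and without an E2F word had similar median differences. Smaller shares of those with a word were over 1.5-fold lower or over 1.5-fold higher. Replication genes with a word had a median log2 difference of -0.47, with 6 of 15 over 1.5-fold lower, and those with a window but no word had -0.43, with 6 of 25. The other 528 array genes with a word had a median of -0.05 and 55.7% of them were lower, against -0.04 and 54.9% of the 15046 array genes outside the group without one. Of the 528 genes with a word, 4 (0.758%) were over 1.5-fold lower and 17 over 1.5-fold higher, against 283 (1.88%) and 738 of the 15046 without one. With the genes of the other replication, nucleotide, E2F, S phase and mitosis lists left out, 2 of 507 genes with a word (0.394%) were over 1.5-fold lower. Of other motifs of cell-cycle promoters, CCAAT was in the windows of 60.0% of the replication genes and 41.7% of the array genes, the GC box GGGCGG in 72.5% and 52.9%, and the words TTTGAA or TTCGAA in 17.5% and 19.0%.

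Genes that start head to head with a replication gene were looked up after the values had been seen. Within 1000 bases before the start site, 7 of the 40 replication genes had a gene on the opposite strand that the array measures. All 7 replication genes were lower, their median log2 difference being -0.30, and their neighbours had a median of 0.02, with 2 lower and 5 higher. Of all replication genes, 46 of 49 were lower. Of the 11362 named genes within the range of mean signal of the members, 6374 were higher and the median was 0.05. Both counts thus lie near those of the larger groups. The pair with the widest gap was Cdc45 and Ufd1, a cofactor of the p97 ATPase that extracts ubiquitinated proteins, whose start sites lie 322 bases apart. Ufd1 had a log2 signal of 9.92 in Mll1 cKO myoblasts and 8.93 in control myoblasts, a difference of 0.99, while that of Cdc45 was -0.43. Mcm7 at -0.35 and its neighbour Ap4m1 at 0.42, with start sites 138 bases apart, also differed in opposite directions. Lig1 at -0.80 lay 105 bases from Zswim9, at -0.12.

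Replication genes outside the 49 gave a similar picture, but on the same arrays and from a list chosen with earlier results known. Of 39 measured genes of a second list, 37 were lower and 10 were over 1.5-fold lower, and the median log2 difference was -0.44. Ticrr, which works with TOPBP1 in the firing of origins, had a log2 signal of 7.59 in Mll1 cKO myoblasts and 8.44 in control myoblasts and was 1.80-fold lower, and Dna2, a nuclease of Okazaki fragments, was 1.78-fold lower. Of 16 other genes of nucleotide metabolism, most of which also serve RNA synthesis, 12 were lower. None of the 16 was over 1.5-fold lower and the median was -0.18. Shmt1, which supplies folate groups to thymidylate synthesis, had the lowest difference of these at -0.56, and the highest was that of Rrm2b.

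Regulators of S phase entry differed in both directions. In the E2F and retinoblastoma family 8 of 13 genes (61.5%) were lower, with a median of -0.11. Lower by any amount were 55.6% of all named genes and 40.7% of those with a signal over 7. E2f1, an activator of S-phase genes, had a log2 signal of 8.28 in Mll1 cKO myoblasts and 8.93 in control myoblasts, 1.57-fold lower. E2f5, which acts with pocket proteins as a repressor, was 1.33-fold higher, with 7.93 in Mll1 cKO myoblasts and 7.52 in control myoblasts. The 3 pocket protein genes, named after their values were seen, went in both directions, with log2 differences of -0.54 for Rbl1, 0.38 for Rb1 and 0.40 for Rbl2. Of 10 kinases and checkpoint genes of S phase 8 (80%) were lower, with a median of -0.35. Chek1, the kinase that claspin helps to activate, was 1.63-fold lower, and Atrip had the highest difference at 0.05. Among 6 measured inhibitors of cyclin-dependent kinases, Cdkn2c was 2.01-fold lower, with log2 signals of 7.02 in Mll1 cKO myoblasts and 8.03 in control myoblasts and no longer over 2-fold after centring (log2 difference -0.96), and Cdkn2b was 1.57-fold higher, with 9.11 in Mll1 cKO myoblasts and 8.46 in control myoblasts. Both encode inhibitors of CDK4 and CDK6, and the median of the 6 was -0.28. The list held 7 inhibitors, and Cdkn1a is not among the 6 that were measured.

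The lower signals were not particular to replication. All 29 measured genes of mitosis were lower, 16 of them (55.2%) by over 1.5-fold, their median was -0.60, and they ranged from -0.82 for the checkpoint kinase Bub1 to -0.03 for the ubiquitin-conjugating enzyme Ube2c. Mki67, which encodes the proliferation antigen Ki67, had a log2 signal of 10.26 in Mll1 cKO myoblasts and 10.87 in control myoblasts. In bulk RNA, fewer cycling cells and less of each RNA per cell cannot be told apart. By immunostaining, the study reported a smaller share of Ki67-positive cells among Mll1 cKO myoblasts, whose part in these differences was not tested. Of 10 reference genes 6 were lower, with a median of -0.01 whose sign turned under centring on all genes, and they ranged from -0.47 for the glycolytic gene Pgk1 to 0.17 for B2m.

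**Figure D4:**
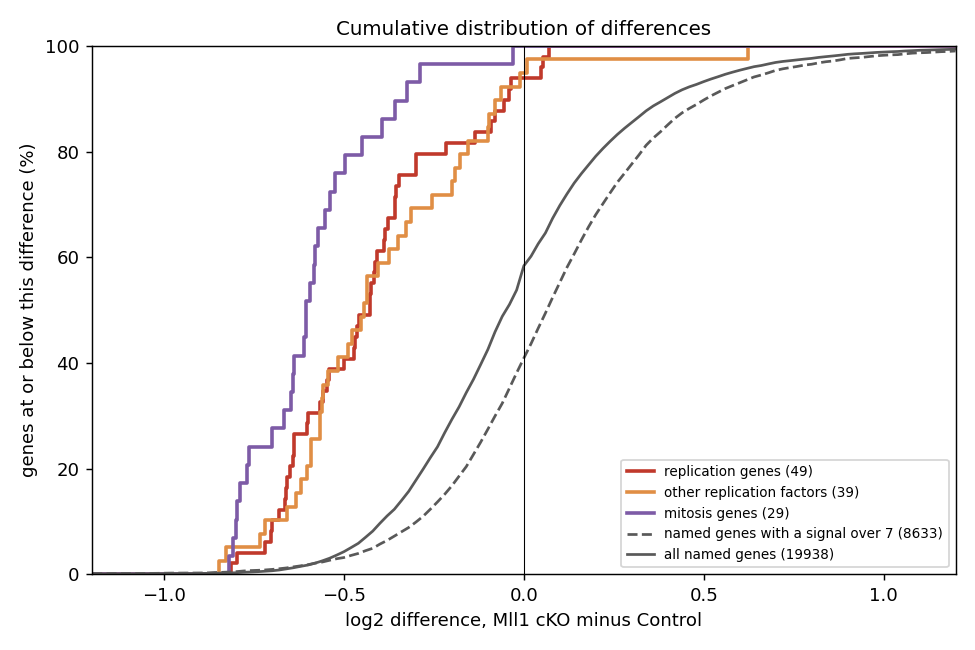
Percent of genes (vertical axis) with a log2 difference, Mll1 cKO minus control, at or below the value on the horizontal axis, for the 49 replication genes, 39 other replication factors, 29 mitosis genes, named genes with a signal over 7 and all named genes. The median is -0.43 for the replication genes, -0.44 for the other replication factors, -0.60 for mitosis and -0.05 for all named genes.

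Most markers of differentiating muscle were higher in the Mll1 cKO array. Most markers of fibroblasts, endothelial cells and immune cells had low signals in both arrays. Of 14 genes of differentiating muscle, 11 were higher and 6 were over 1.5-fold higher, with a list median of 0.57. Their median log2 signal was 7.97 in Mll1 cKO myoblasts and 7.37 in control myoblasts. Over 1.5-fold higher were 4.86% of all named genes and 7.37% of those with a signal over 7. Myl1, a myosin light chain, was 2.34-fold higher and Mymk, the fusion protein myomaker, was 2.21-fold higher. Myog was 1.56-fold higher, a fold that the study also lists for the array, beside a smaller increase by qPCR. On the basis of both, the study described its mRNA as unchanged. Tnni2, Mymx and Ckm were the 3 lower genes, with log2 differences of -0.28, -0.12 and -0.11. Of 10 myoblast markers, 7 were lower, with a median of -0.12 and log2 signals from 6.14 to 12.27 in the Mll1 cKO array and from 9.43 to 12.15 in the control array, and Myf5 alone was over 2-fold lower. The methods state that the myoblasts were purified on magnetic columns, with cells bearing CD11b, SCA1, CD45 or CD31 removed and those with α7-integrin kept. CD45 is a surface marker of immune cells and CD31 one of endothelial cells. Ly6a, which encodes SCA1, is on none of the marker lists used here. The study reported it among its most increased genes in Mll1 cKO myoblasts, by array and by qPCR. Markers of fibroblasts had median log2 signals of 4.94 in Mll1 cKO myoblasts and 4.95 in control myoblasts and a median difference of -0.17. The 2 higher genes of these 8 were Dcn, with a log2 signal of 4.79 in Mll1 cKO myoblasts and 4.44 in control myoblasts, and Cd34, which was 2.40-fold higher and also marks satellite cells, for which the study sorted with it. Those of endothelial cells had medians of 4.12 in Mll1 cKO myoblasts and 4.38 in control myoblasts and a median difference of -0.21. Immune markers had medians of 4.13 in Mll1 cKO myoblasts and 4.28 in control myoblasts and a median difference of -0.10. Ptprc, which encodes CD45, had a log2 signal of 3.69 in Mll1 cKO myoblasts and 3.83 in control myoblasts. Of the 6 immune markers 4 were lower, and the 2 higher ones, Cd68 and Laptm5, encode lysosomal proteins and had stronger signals. Cd68 had a log2 signal of 7.47 in Mll1 cKO myoblasts and 6.08 in control myoblasts and was 2.62-fold higher. Laptm5 had 6.46 in Mll1 cKO myoblasts and 5.91 in control myoblasts and was 1.47-fold higher. All named genes with mean signals from 3.33 to 5.28 had medians from -0.23 to -0.14 in 3 groups of signal, so the medians of the fibroblast and endothelial lists lay within that range and that of the immune list just above it. The part of differentiating cells in the replication gene differences was not tested.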

How the data were processed

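RNA of 1 Mll1 cKO and 1 control culture was hybridised to Affymetrix MoGene 1.0 ST arrays. The authors normalized the raw intensities by RMA in Bioconductor and deposited log2 signals of 35557 probe sets. The RMA version was not given in the sources used. Signals were compared as deposited. Symbols came from the platform annotation: 21789 probe sets had 1 symbol and gave 19938 genes, and 1621 with several were not named. Signals of a gene's probe sets were averaged. Precision is limited by the number of arrays, 1 per condition, which gives no spread, standard error or p-value. The genes and lists were chosen with earlier results of these data known. Values were given for the 10 lowest and 4 highest members, the extremes of each role, genes with over 1 probe set and, in other lists, genes over 2-fold or the extremes, and a few further genes of those lists were named after their values were seen. Alternatives were centring on the median of all genes, removal of a lowess trend on signal (span 0.3), renewed quantile normalization, a signal over 7 in the higher array, a mean signal over 6, the brightest probe set and updated symbols. Promoter windows were RefSeq's (GRCm38.p6). The functions were tested on simulated data. Python 3.11.15, numpy 2.4.6, pandas 2.3.3, statsmodels 0.14.6 and matplotlib 3.10.9 were used.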

Additional observations from a re-analysis of the deposited data

How the results depend on the processing

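The number of replication genes lower in the Mll1 cKO array ranged from 44 to 48 over the alternatives, the number over 1.5-fold lower from 13 to 18, and none was over 2-fold lower in any. Their median log2 difference lay between -0.49 and -0.38. The medians of the 10 roles stayed within 0.1 of their values, except licensing control, which was -0.48 with the trend on signal removed, where Gmnn was the median gene. Tk1 and Tipin were no longer over 1.5-fold lower after centring. Orc6 passed 1.5-fold with the trend removed and after renewed quantile normalization, as did Dut, and Pole passed after the normalization. Scalings moved the median of all genes by at most 0.05. With the trend removed, the median of the immune markers changed sign, from -0.10 to 0.062. That of the endothelial markers moved from -0.21 to -0.02. The share of windows with an E2F word was 27.5% with 2 words and 30.0% in the last 150 bases. No replicate could be left out, and no paired analysis was possible because each group has 1 array.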
